A study of Mus musculus with 8 samples.

Results

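The transcription factor p53 is a tetramer that is held at low levels by the ubiquitin ligase Mdm2 and is stabilised after DNA damage and other stress. It then binds response elements built from a pair of decamers and raises genes for cell cycle arrest, apoptosis, DNA repair and metabolism, among them Mdm2 itself, which closes a feedback loop. Many of these genes have other inputs as well, such as FoxO, Atf4 or NF-kB factors, so that they are transcribed in cells that lack p53. The genes described here are 36 such p53 targets, taken by their symbols in the probe annotation, current or older, and examined in mouse embryonic fibroblasts (MEFs) with no p53.

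Every culture carried the genotype Trp53-/- Dnmt1+/+, so both groups lacked p53 and had the maintenance methyltransferase Dnmt1. Control MEFs received DMSO, and treated MEFs received 5-aza-2'-deoxycytidine (5-aza-dC). This drug replaces deoxycytidine in replicating DNA and traps the DNA methyltransferases there. It was given for 72 h at 1 µM by the sample labels. The study's methods give a lower concentration, and which of them holds for these cultures is not settled here. Each group had 2 biological replicates with 2 technical arrays each, n = 2 per group, and nothing in the labels says whether the replicates were separate cultures, so that the p-values measure the spread between these samples only. The MEFs came from an existing line whose background strain is given as unknown, and no p53-proficient MEFs were compared. The comparison asked which transcripts change when DNA methyltransferases are inhibited, and the genes below show this for p53 targets without p53.

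Of the 36 genes, 33 had a probe on the array and 28 passed the detection filter and were tested, of 9502 tested genes and 16590 genes on the array. Bax and Gdf15 had no listed probe, and Tap63, a name for an isoform of p63, matched no symbol and has no value here. Perp, Aen, Btg2, Sfn and Trp73 were not detected above background on any of the 8 arrays. Trp53 has no listed probe, so that the genotype could not be checked by its own transcript.

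In 5-aza-dC, 9 of the 28 tested p53 target genes were higher than in control MEFs, 12 were lower and 7 did not pass the test (limma, adjusted p under 0.05 over all tested genes). These 21 calls are 75% of the tested members, where 52.0% of all tested genes passed, 26.3% as higher and 25.7% as lower. Of the 9 higher genes 1, Tigar, passed the detection filter only through the 5-aza-dC arrays. Leaving out control replicate 1 left 5 higher and 9 lower (50% of the members, 34.1% of all tested genes), and leaving out control replicate 2 left 5 higher and 7 lower (42.9% and 35.1%). In 6 of the 8 roles genes were called in both directions, and the median log2 fold change of the 28 genes was -0.06, beside -0.02 over all tested genes. The median size of the change regardless of sign was 0.59 on the log2 scale, beside 0.41 over all tested genes. Only Plk3 was called higher by more than 2-fold, and only Sesn3 and Sesn1 were called lower by more than 2-fold, 3 genes in all, where 15.5% of all tested genes were called past 2-fold. Plk3 was under 2-fold with an offset of 50 (log2 fold change 0.78), median scaling (0.93) and the authors' normalised values (0.77). It was also under 2-fold without control replicate 2 and without 5-aza-dC replicate 1. Trp53inp1 was lower by more than 2-fold with median scaling (-1.035) and with the mean of kept probes (-1.135). The same held for Trp53inp1 without control replicate 1 and without 5-aza-dC replicate 1. Replicates of the groups did not overlap for 24 of the 28 genes, against 76.5% of all tested genes. All 21 called genes also kept the 8 single arrays of the groups apart. The share over all called genes was not computed, so this does not set the p53 targets apart.

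Mean signals per array were 295 to 376, and 12841 to 13595 probes were detected on each. The 5-aza-dC replicates lay farther apart than the control replicates, with an SD of the replicate difference of 0.32 against 0.17 on the log2 scale. Over the tested p53 targets, the median difference between replicates regardless of sign was 0.14 in 5-aza-dC and 0.09 in control. Fibroblast markers were present in control MEFs, where 14 of 15 on the array were detected, Fap being the exception. In 5-aza-dC 10 of these 15 markers were lower and 2, Thy1 and Twist2, were higher. Col5a2 and Lum of the lower ones passed the detection filter only through the control arrays. The summed log2 level of the 15 ran from 142 to 144 over the single control arrays and from 119 to 121 over the single 5-aza-dC arrays. Of 7 epithelial markers on the array, 6 were undetected in control and Krt5 was undetected throughout. Their summed level was 31.1 to 31.9 over the control arrays and 47.1 to 48.1 over the 5-aza-dC arrays. The 5 called higher, Krt8, Krt18, Krt14, Cldn4 and Grhl2, passed the detection filter only through the 5-aza-dC arrays, so these calls add little. Cldn4 was detected on 2 of 4 5-aza-dC arrays and showed no rise with the control raised to the lowest detected level of each array. Of 6 endothelial markers, 4 were undetected in control, with Cdh5, Kdr and Tek undetected throughout (summed levels 27.3 to 27.7 and 27.4 to 28.1). The 1 called higher, Emcn, passed the filter only through the 5-aza-dC arrays. Of 4 blood markers, Ptprc, Itgam and Adgre1 were undetected throughout and 1, Cd3e, detected only in control, was lower (18.5 to 18.8 and 17.6 to 17.8). The part of these shifts in the p53 target values was not tested, and in bulk RNA fewer cells of a type and less RNA per cell cannot be told apart.

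**Figure D1:**
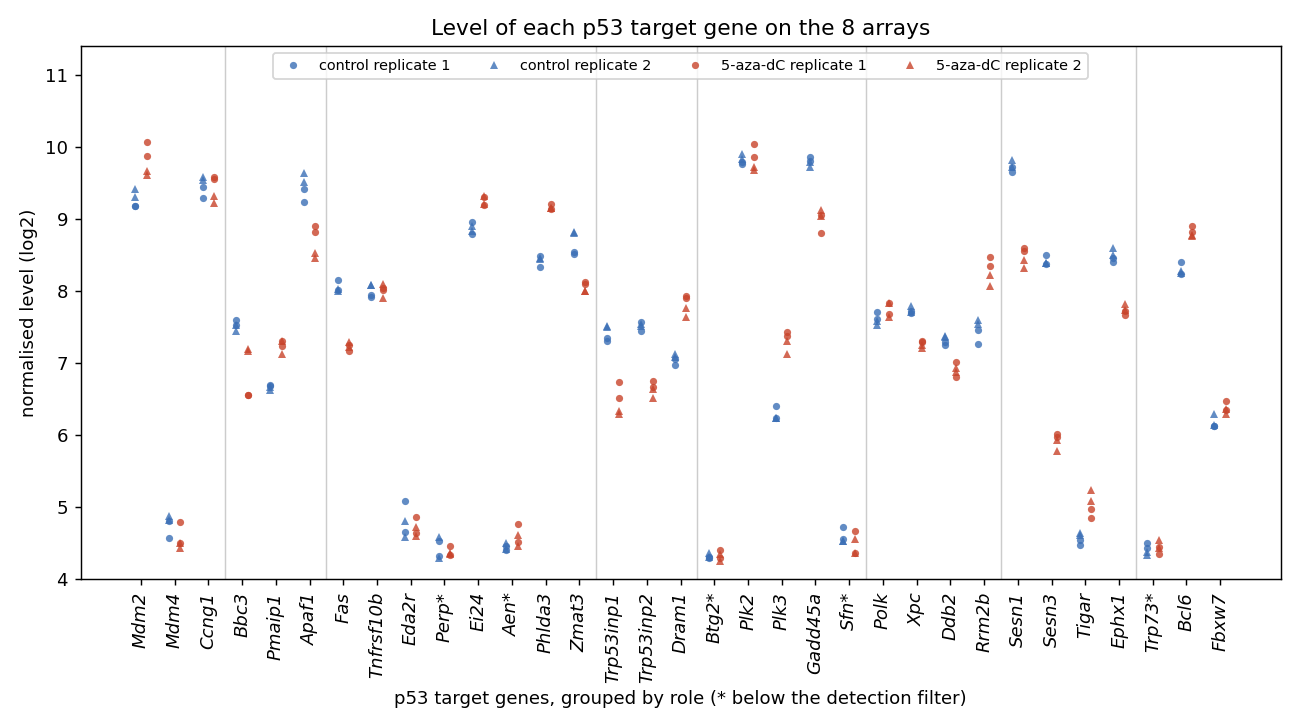
Normalised level (log2, vertical axis) of the 33 p53 target genes on the array, by role (grey lines), on each control (blue) and 5-aza-dC (red) array, with circles for replicate 1 and triangles for replicate 2. Sesn3 stands at 8.38 to 8.44 in the control replicates and 5.86 to 5.997 in the 5-aza-dC replicates, and the 5 genes with an asterisk were undetected on all 8 arrays.

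The bases upstream of the start sites were examined because these genes are defined by p53 binding and the drug acts on CpG methylation. RefSeq promoter entries of build GRCm38.p6 matched 25 of the 33 genes on the array, 21 of them tested, and the 250 bases before each start were searched for the p53 decamer consensus, which is its own reverse complement and so reads on both strands. A match was found for 6 of the 21 genes, in 6 of 29 promoters, where 7.13% of all 32851 promoters held one. No tested gene had a pair of matches at most 13 bases apart in this window, beside 0.0639% of all promoters. A match here is a description of the letters and not a measured binding site. The 6 matches are printed to show what the decamers of genes with different responses look like, each 5' to 3' on the gene's strand with the matched decamer in capitals.

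Mdm2 (higher in 5-aza-dC; GRCm38.p6 chr10:117710915-117710964, minus strand): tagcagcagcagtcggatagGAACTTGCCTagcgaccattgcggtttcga
Ei24 (higher; chr9:36797335-36797364, minus strand): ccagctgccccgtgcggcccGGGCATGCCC
Gadd45a (lower; chr6:67037418-67037467, minus strand): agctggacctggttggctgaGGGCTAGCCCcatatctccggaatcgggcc
Sesn1 (lower; chr10:41887246-41887295, plus strand): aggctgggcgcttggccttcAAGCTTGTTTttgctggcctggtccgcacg
Ccng1 (not passed; chr11:40755442-40755491, minus strand): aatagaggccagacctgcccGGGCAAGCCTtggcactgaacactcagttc
Polk (not passed; chr13:96519389-96519437, minus strand): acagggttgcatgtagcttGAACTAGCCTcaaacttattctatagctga

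Thus 2 genes with a match were higher, 2 were lower and 2 did not pass the test. CpG dinucleotides in the same windows numbered 13 to 31 (median 19.5) over the 8 promoters of the genes called higher. They numbered 3 to 42 (median 23) over the 11 promoters of those called lower. Over the 10 promoters of those that did not pass they numbered 1 to 28 (median 5.5). The median over all 32851 promoters was 6, with genes included that were undetected or not on the array, so the 2 sets are unlike. These counts are a description, since a gene with several promoters is counted more than once and few genes stand behind each median. Of the genes that did not pass, Fbxw7, Mdm4 and Polk each have more than 1 promoter here. The upstream windows of Sesn3, which fell most, of Plk3, which rose most, and of Ephx1, which had the fewest CpGs among the called genes, are printed with every CpG in capitals.

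Sesn3 (16 CpGs; GRCm38.p6 chr9:14276051-14276300, plus strand): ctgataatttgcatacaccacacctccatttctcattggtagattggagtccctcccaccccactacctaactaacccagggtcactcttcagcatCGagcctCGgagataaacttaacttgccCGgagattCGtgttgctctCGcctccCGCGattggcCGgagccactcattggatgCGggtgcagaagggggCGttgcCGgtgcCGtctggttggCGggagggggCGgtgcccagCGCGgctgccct
Plk3 (13 CpGs; chr4:117133964-117134213, minus strand): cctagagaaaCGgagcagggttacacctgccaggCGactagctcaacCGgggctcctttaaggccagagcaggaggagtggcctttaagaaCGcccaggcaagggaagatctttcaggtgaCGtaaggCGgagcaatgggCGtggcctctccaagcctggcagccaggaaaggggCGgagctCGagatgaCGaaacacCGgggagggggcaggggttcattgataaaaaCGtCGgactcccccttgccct
Ephx1 (3 CpGs; chr1:181017570-181017819, minus strand): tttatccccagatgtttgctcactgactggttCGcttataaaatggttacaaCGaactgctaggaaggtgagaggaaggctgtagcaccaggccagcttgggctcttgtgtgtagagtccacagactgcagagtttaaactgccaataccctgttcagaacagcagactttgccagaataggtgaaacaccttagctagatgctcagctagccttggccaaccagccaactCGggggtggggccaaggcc

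Among the p53 inhibitors and feedback genes, Mdm2 was higher and the other 2 genes did not pass the test. Mdm2, the ligase that marks p53 for degradation, stood at log2 levels of 9.18 and 9.36 in the control replicates and 9.98 and 9.64 in the 5-aza-dC replicates. The groups did not overlap, with a 1.45-fold higher level in 5-aza-dC (log2 fold change 0.54 ± 0.15 SE, adjusted p = 0.0287), and a further probe of Mdm2 gave 0.72. Mdm4, a relative of Mdm2 that blocks transactivation by p53, was near background and detected on 1 of 4 arrays in each group, with 4.69 and 4.85 in control and 4.65 and 4.47 in 5-aza-dC (-0.21 ± 0.11, adjusted p = 0.172). Ccng1, cyclin G1, which recruits phosphatase to Mdm2, overlapped between the groups at 9.37 and 9.56 in control and 9.57 and 9.27 in 5-aza-dC (-0.04 ± 0.15, adjusted p = 0.826). The call of Mdm2 was lost when control replicate 1 was left out (adjusted p = 0.205) and when control replicate 2 was left out (adjusted p = 0.0797), while Mdm4 passed as lower without 5-aza-dC replicate 1 (-0.29, adjusted p = 0.0456).

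The genes of the mitochondrial route to apoptosis went in opposite directions, with Pmaip1 higher and Bbc3 and Apaf1 lower. Bbc3 (Puma), a BH3-only protein that opposes the survival members of the Bcl2 family, stood at 7.56 and 7.49 in control and 6.56 and 7.18 in 5-aza-dC. Both 5-aza-dC replicates lay below both controls but far apart from each other (1.57-fold lower, log2 fold change -0.65 ± 0.21, adjusted p = 0.0421). Pmaip1 (Noxa), another BH3-only protein, was at 6.69 and 6.64 in control and at 7.27 and 7.21 in 5-aza-dC, with replicates close together (1.49-fold higher, 0.57 ± 0.10, adjusted p = 0.00468). Apaf1, the scaffold on which cytochrome c activates caspase-9, was at 9.33 and 9.58 in control and at 8.86 and 8.49 in 5-aza-dC (1.71-fold lower, -0.78 ± 0.17, adjusted p = 0.0107). The second kept probe of each of these genes was called in the same direction, at -0.40 for Bbc3, 0.54 for Pmaip1 and -0.85 for Apaf1. Without control replicate 2 none of the 3 passed (adjusted p = 0.0580 for Bbc3, 0.0538 for Pmaip1 and 0.0584 for Apaf1), Bbc3 was lost without control replicate 1 (adjusted p = 0.0917), and it was also lost with no detection filter (adjusted p = 0.0515).

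Death receptors and the remaining apoptosis genes were split, with Fas and Zmat3 lower, Phlda3 and Ei24 higher, and Tnfrsf10b and Eda2r not passing at the probe used. Fas, the receptor for Fas ligand, stood at 8.08 and 8.01 in control and at 7.20 and 7.26 in 5-aza-dC. Its groups were separated by far more than its replicates (1.76-fold lower, log2 fold change -0.82 ± 0.10, adjusted p = 0.00136), and its second probe gave -0.63. Phlda3, which competes with Akt for membrane lipids and so restrains it, was at 8.41 and 8.45 in control and at 9.17 and 9.16 in 5-aza-dC (1.67-fold higher, 0.74 ± 0.10, adjusted p = 0.00202), with 0.75 at its second probe. Zmat3, a zinc finger protein that binds RNA, was at 8.53 and 8.81 in control and at 8.11 and 7.997 in 5-aza-dC (1.53-fold lower, -0.61 ± 0.13, adjusted p = 0.0112). Ei24, a protein of the endoplasmic reticulum linked to growth suppression and autophagy, was at 8.87 and 8.86 in control and at 9.25 and 9.26 in 5-aza-dC (1.31-fold higher, 0.39 ± 0.10, adjusted p = 0.0216). Eda2r, a receptor of the TNF receptor family for ectodysplasin, was detected on 1 of 4 arrays in each group and overlapped between them, at 4.87 and 4.70 in control and 4.75 and 4.66 in 5-aza-dC. Perp and Aen, a membrane protein and a nuclease of apoptosis, were undetected in both groups, with normalised values of 4.36 to 4.64. Without control replicate 2, Zmat3 (adjusted p = 0.116) and Ei24 (adjusted p = 0.220) were lost, and Ei24 was lost also without control replicate 1 (adjusted p = 0.216) and with scaling to a common median (adjusted p = 0.0596).

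Tnfrsf10b, the mouse receptor for the death ligand Trail, was the only gene of the list whose kept probes disagreed on the call. The brightest probe, on which the test rested, stood at 7.93 and 8.08 in control and at 8.03 and 7.999 in 5-aza-dC, with overlapping groups (log2 fold change 0.01 ± 0.11, adjusted p = 0.929). A second probe was detected on 2 of 4 control arrays and 4 of 4 5-aza-dC arrays, with 4.91 and 4.82 in control and 6.16 and 5.91 in 5-aza-dC (1.17, adjusted p = 0.000548 over probes). Another probe went from 4.99 in both control replicates to 5.95 and 5.88 (0.92, adjusted p = 0.000563 over probes), with 3 of 4 control arrays detected. The last was undetected on every control array and detected on every 5-aza-dC array, with 4.64 and 4.50 in control and 5.20 and 5.25 in 5-aza-dC. This last probe was kept only through the 5-aza-dC arrays, so its difference is given as levels and not as a call. Which transcripts each probe reads was not examined. With the mean of the kept probes, that probe included, in place of the brightest, Tnfrsf10b passed the test (0.69, adjusted p = 0.00177).

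**Figure D2:**
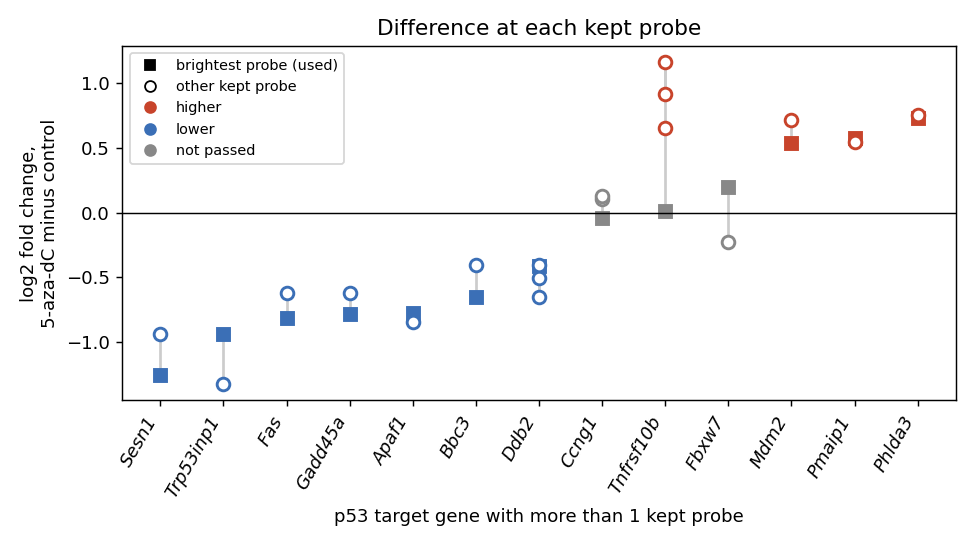
Log2 fold change (5-aza-dC minus control, vertical axis) at every kept probe of the 13 p53 targets that have several, with squares for the brightest probe, open circles for the others, and red, blue and grey for higher, lower and not passed. In 10 genes all probes were called in 1 direction, in Ccng1 and Fbxw7 none was called, and in Tnfrsf10b the brightest probe was not called while the 3 dim probes lie higher, 1 of them undetected on every control array. The dimmest Ddb2 probe was undetected on every 5-aza-dC array and kept only through the control arrays.

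In the autophagy group, both Trp53inp genes were lower and Dram1 was higher. Trp53inp1, a stress protein that acts with p53 in the nucleus and in autophagy, was at 7.32 and 7.51 in control and at 6.63 and 6.32 in 5-aza-dC. The groups did not overlap (1.92-fold lower, log2 fold change -0.94 ± 0.14, adjusted p = 0.00297), and its second probe gave -1.33. Its paralogue Trp53inp2, which helps autophagosomes form, was at 7.504 and 7.53 in control and at 6.71 and 6.58 in 5-aza-dC (1.83-fold lower, -0.87 ± 0.10, adjusted p = 0.00126). Dram1, a lysosomal membrane protein needed for p53-driven autophagy, was at 7.01 and 7.10 in control and at 7.92 and 7.70 in 5-aza-dC (1.68-fold higher, 0.75 ± 0.12, adjusted p = 0.00347). These 3 calls held under every one of the 14 alternative settings tried.

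Among the genes of cell cycle arrest and checkpoints, Plk3 was higher, Gadd45a was lower and Plk2 did not pass. Plk3, a polo-like kinase of the stress response, was at 6.33 and 6.24 in control and at 7.41 and 7.21 in 5-aza-dC, the largest rise among the tested p53 targets (2.04-fold, log2 fold change 1.03 ± 0.11, adjusted p = 0.000985). Its paralogue Plk2 overlapped between the groups at 9.77 and 9.86 in control and 9.95 and 9.70 in 5-aza-dC (0.005 ± 0.13, adjusted p = 0.980). Gadd45a, a stress protein that slows entry into mitosis and has been linked to DNA demethylation, was at 9.83 and 9.75 in control and at 8.93 and 9.08 in 5-aza-dC (1.72-fold lower, -0.78 ± 0.12, adjusted p = 0.00259), with -0.62 at its second probe. Btg2, an antiproliferative protein, and Sfn (stratifin), which holds cyclin complexes in the cytoplasm, were undetected in both groups, with normalised values of 4.30 to 4.35 for Btg2 and 4.46 to 4.64 for Sfn.

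The DNA damage recognition genes Xpc and Ddb2 were lower, the ribonucleotide reductase subunit Rrm2b was higher and the translesion polymerase Polk did not pass. Xpc, which finds helix-distorting lesions for nucleotide excision repair, was at 7.71 and 7.75 in control and at 7.30 and 7.23 in 5-aza-dC (1.38-fold lower, log2 fold change -0.46 ± 0.10, adjusted p = 0.0108). Ddb2, which brings Xpc to ultraviolet damage in chromatin, was at 7.26 and 7.37 in control and at 6.91 and 6.90 in 5-aza-dC (1.33-fold lower, -0.41 ± 0.10, adjusted p = 0.0178). All 4 kept probes of Ddb2 were called lower, from -0.65 to -0.41. The dimmest of them, detected on 3 of 4 control arrays and on no 5-aza-dC array, was kept only through the control arrays. Its call therefore adds little. Rrm2b (p53R2), which supplies deoxynucleotides outside S phase, was at 7.36 and 7.57 in control and at 8.41 and 8.14 in 5-aza-dC (1.75-fold higher, 0.81 ± 0.14, adjusted p = 0.00454). This call rests on 1 of its 3 probes, the others being undetected on every array. Polk stood at 7.66 and 7.56 in control and at 7.76 and 7.74 in 5-aza-dC, and the difference did not pass (0.13 ± 0.10, adjusted p = 0.314). Its replicates did not overlap, while its single arrays did. Xpc and Ddb2 did not pass when control replicate 1 was left out (adjusted p = 0.0944 and 0.103), nor when control replicate 2 was (adjusted p = 0.123 and 0.195).

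The metabolic and redox genes held the largest falls. Sesn3, a sestrin that restrains mTORC1 signalling and oxidative stress, was at 8.44 and 8.38 in the control replicates and at 5.997 and 5.86 in the 5-aza-dC replicates. The distance between the groups was many times that between replicates (5.59-fold lower, log2 fold change -2.48 ± 0.11, adjusted p = 5.6e-05). Sesn1, its paralogue, was at 9.68 and 9.77 in control and at 8.57 and 8.37 in 5-aza-dC (2.38-fold lower, -1.25 ± 0.12, adjusted p = 0.00059), and its second probe gave -0.94. Ephx1, the microsomal epoxide hydrolase, was at 8.43 and 8.54 in control and at 7.70 and 7.78 in 5-aza-dC (1.68-fold lower, -0.75 ± 0.11, adjusted p = 0.00229). Tigar, a phosphatase that turns glucose away from glycolysis, was undetected on all 4 control arrays and detected on all 4 5-aza-dC arrays, with 4.51 and 4.63 in control and 4.91 and 5.16 in 5-aza-dC. It passed the detection filter only through the 5-aza-dC arrays, so its call adds little. With the control raised to the lowest detected level of each array, Tigar was at least 1.12-fold higher, a bound that has no test of its own. The measured levels gave an adjusted p of 0.0195, and of 0.0787 without control replicate 1.

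In the last group, Bcl6 was higher and Fbxw7 did not pass. Bcl6, a transcriptional repressor of germinal centre B cells, was at 8.32 and 8.27 in control and at 8.86 and 8.77 in 5-aza-dC (1.44-fold higher, log2 fold change 0.52 ± 0.10, adjusted p = 0.00805), a call lost without control replicate 1 (adjusted p = 0.0795) or control replicate 2 (adjusted p = 0.105). Fbxw7, the substrate receptor of a ubiquitin ligase for cyclin E and Myc, was at 6.13 and 6.22 in control and at 6.41 and 6.33 in 5-aza-dC (0.20 ± 0.10, adjusted p = 0.157). Its replicates did not overlap, while its single arrays did, and its second kept probe gave -0.23. Trp73, the p53 relative p73, was undetected on all 8 arrays, with normalised values of 4.35 to 4.49.

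**Figure D3:**
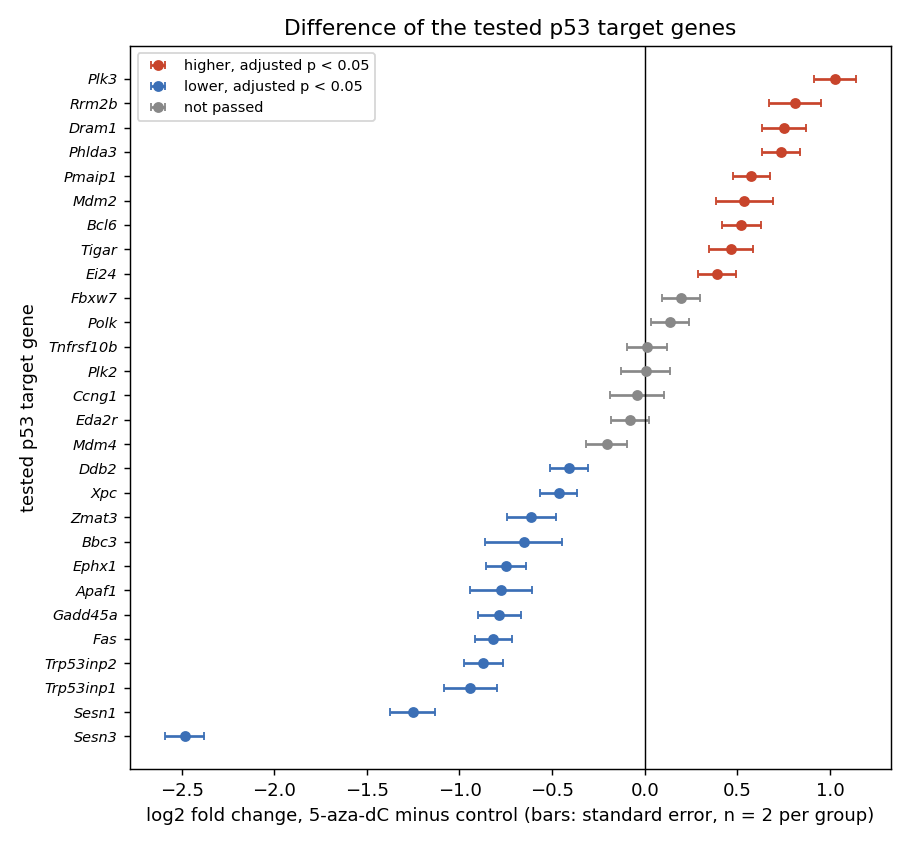
Log2 fold change (5-aza-dC minus control, horizontal axis, bars the standard error, n = 2 per group) of the 28 tested p53 target genes, ordered by value, with red for higher, blue for lower and grey for not passed. The values run from -2.48 for Sesn3 to 1.03 for Plk3, with 9 genes called higher and 12 called lower.

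Set within all tested genes, which ran from -5.33 to 6.92 on the log2 scale, the p53 target genes took neither extreme. Sesn3 lay apart from the other 27 tested p53 targets, the next lowest being Sesn1 at -1.25.

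**Figure D4:**
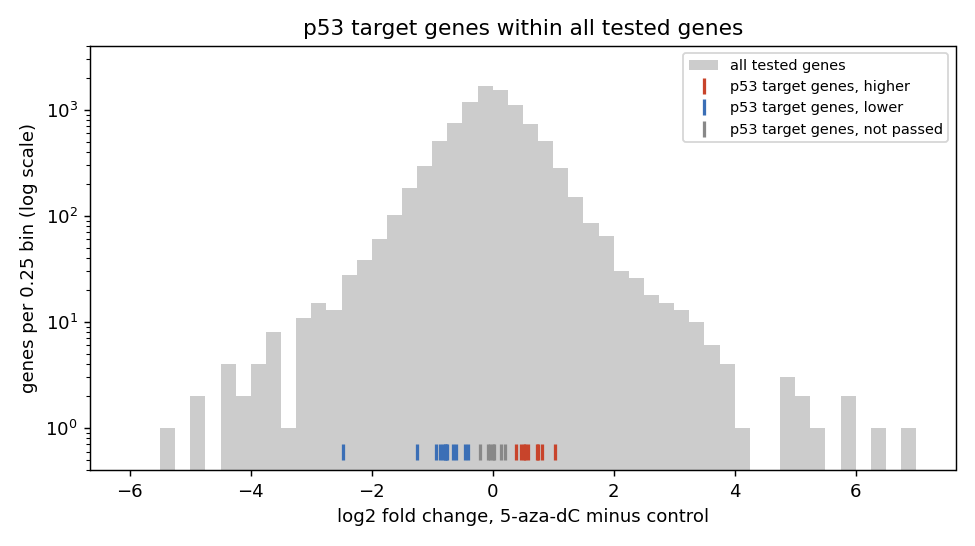
Histogram of log2 fold changes (5-aza-dC minus control, horizontal axis) of all 9502 tested genes, in bins of 0.25 with a logarithmic count axis, with the 28 p53 target genes as ticks at the base, red for higher, blue for lower and grey for not passed. All tested p53 targets but Sesn3 lie between -1.25 and 1.03.

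Further genes of the pathway were read beside these. Of 60 further p53 targets listed, 50 had a probe and 40 passed the filter. Of these 40, 14 were higher, 15 were lower and 11 did not pass (72.5% called, beside 52.0% of all tested genes). Their median log2 fold change was -0.09. Lif and Irf5 of the higher genes passed the filter only through the 5-aza-dC arrays, and Psrc1 and Cpt1c of the lower genes only through the control arrays. The highest called were the stress regulators Dusp1, a phosphatase of MAP kinases (2.12), Atf3 (2.03) and Klf4 (1.89), and the lowest were Ndrg1, a stress and differentiation protein (-1.99), Sesn2 (-1.93) and Pltp, the phospholipid transfer protein (-1.84). With Sesn2, which has a second kept probe at -0.72, all 3 sestrins were lower. Cdkn1a, the cyclin-dependent kinase inhibitor p21, stood at 8.50 and 8.36 in control and at 8.83 and 8.98 in 5-aza-dC (1.39-fold higher, 0.47 ± 0.12, adjusted p = 0.0178), and of its 3 kept probes 2 were called higher. Cdkn1a did not pass without control replicate 1 (adjusted p = 0.0874), nor when control replicate 2 was left out (adjusted p = 0.195).

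Most of the regulators of p53 did not pass the test. Of 39 listed, 35 had a probe and 34 passed the filter. Of these, 8 were higher, 3 were lower and 23 did not pass, so that 32.4% passed, beside 52.0% of all tested genes. Hipk1, 1 of the 8, passed the filter only through the 5-aza-dC arrays. It showed no rise with the control raised to the lowest detected level of each array. The highest called were the deacetylase Sirt1 (1.23), the damage kinase Atm (1.20, with 0.28 to 1.20 over its 3 kept probes) and Usp7, a deubiquitinase of p53 and Mdm2 (0.80). Those called lower were Cdkn2a, whose Arf product inhibits Mdm2 (-1.39, with 8.23 and 9.15 in the 5-aza-dC replicates), the p53 binding protein Trp53bp1 (-0.91) and the ubiquitin ligase Huwe1 (-0.34, adjusted p = 0.0433). Without control replicate 1 or without control replicate 2, 4 regulators were called higher, while calls over all tested genes fell to 34.1% and 35.1%, and Huwe1 was lost in both cases (adjusted p = 0.335 and 0.209). Regulators called lower numbered 2 to 5 over the alternatives, with 5 without 5-aza-dC replicate 1.

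Of 39 listed genes of the apoptosis machinery, 32 had a probe and 26 passed the filter, and of these 6 were higher, 9 were lower and 11 did not pass (57.7% called, near the 52.0% of all tested genes), with a median log2 fold change of -0.15 (-0.09 with genes undetected in 1 group at their bound). The highest called were cytochrome c, Cycs (1.31), the inhibitor of apoptosis Birc5 (1.15), which is also a mitotic protein, and Traf2, an adaptor of TNF receptors (1.02). The lowest were the BH3-only gene Bmf (-1.26), the initiator caspase Casp9 (-0.70) and the receptor Tnfrsf1a (-0.67). Casp12 and Birc3, also called lower, passed the filter only through the control arrays. Casp9 and Apaf1, partners in the apoptosome, were both lower, and Cycs, which triggers it, was higher. Without control replicate 1 the machinery genes called lower numbered 5, and without control replicate 2 they numbered 4, while calls over all tested genes fell to 34.1% and 35.1%.

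**Figure D5:**
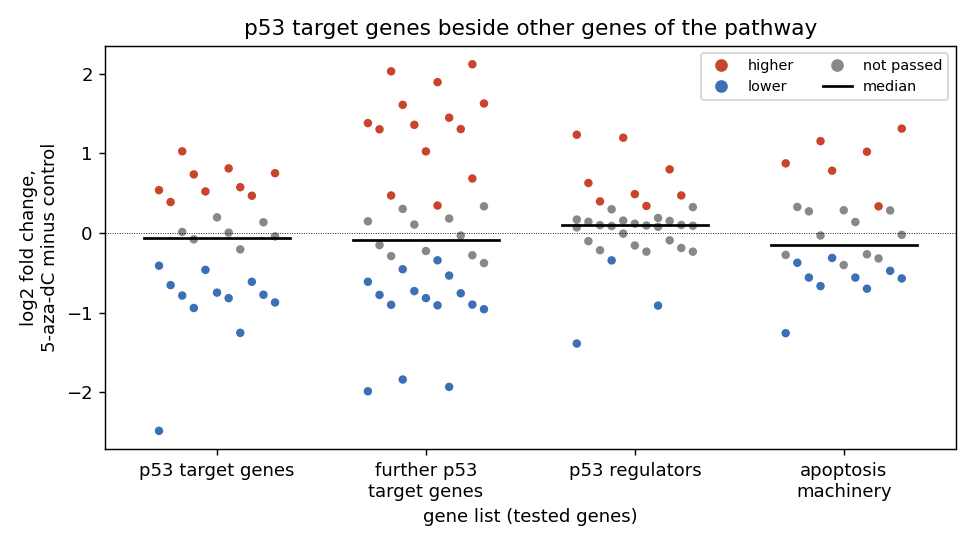
Log2 fold change (5-aza-dC minus control, vertical axis) of each tested gene in the p53 target list and in the 3 other lists of the pathway, with red for higher, blue for lower, grey for not passed and a black line at the median. The medians lie at -0.06 for the p53 targets, -0.09 for further p53 targets, 0.10 for p53 regulators and -0.15 for apoptosis machinery.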

How the data were processed

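The deposited non-normalised values for each of 8 bead arrays are a bead signal with its detection p-value (how many of the negative controls were brighter). The column names do not say whether a background was taken from the signal. The authors also deposited normalised intensity values made with lumi (version not given in the sources used here), with background adjustment, a variance-stabilising transformation and robust spline normalisation per the methods. The methods name a whole-genome array, whereas the probes are those of the related RefSeq array. The deposited signals were background-corrected, quantile-normalised and put on the log2 scale here with neqc (limma 3.58.1, R 4.3.3, version 1.17.8 of data.table, offset 16, controls inferred from the detection p-values). A probe was kept if 2 or more of the 8 arrays had a detection p under 0.05 (14308 of 25697), the brightest kept probe stood for a gene, and technical arrays were averaged. The annotation gave 1 symbol to 23978 probes, several to 0 and none to the 1719 that it does not list.

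The groups were compared by limma with a variance trend, two-sided (residual degrees of freedom 2, prior 3.82), and p-values were adjusted by Benjamini-Hochberg over all 9502 tested genes. Differences are given as 5-aza-dC less control, and the number of arrays limits their precision (median SE 0.12). The p53 target genes and all lists were chosen with earlier results of these data known. Named beside the p53 targets are the 3 highest and 3 lowest called genes of each further list and Cdkn1a. Alternatives covered the offset, median scaling, the authors' normalised values, the detection filter, the probe rule, arrays entered singly, a replicate block, the variance trend and leaving out each replicate. Promoter sequences are from RefSeq, build GRCm38.p6.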

Additional observations from a re-analysis of the deposited data

Results flagged for a closer look

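Among 56 sets of 4 arrays (28 tested p53 targets in 2 groups), 3 held a single array far from the other 3, where chance alone flags about 1 in 20 sets. They were Sesn3 on an array of control replicate 1 (log2 level 8.50, nearest other control array 8.38), Plk3 on the other array of control replicate 1 (6.41, nearest 6.24) and Fbxw7 on an array of control replicate 2 (6.30, nearest 6.14). The 4 arrays of a set are pairs of technical arrays of 2 replicates. The Sesn3 array lies away from the 5-aza-dC arrays and the Plk3 array toward them, and both stay on the control side. The Fbxw7 array lies above an array of 5-aza-dC replicate 2 (6.29).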

How the results depend on the processing

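Of the 21 called p53 targets, 11 kept their call under all 14 alternatives (4 higher, which were Dram1, Phlda3, Plk3 and Rrm2b, and 7 lower, which were Ephx1, Fas, Gadd45a, Sesn1, Sesn3, Trp53inp1 and Trp53inp2), and 0 of the 21 changed direction. Leaving out one replicate gave 5 to 9 genes higher and 7 to 13 lower, with a median log2 fold change of -0.157 to -0.00313, while 34.1% to 62.2% of all tested genes were called (58.1% and 62.2% without 5-aza-dC replicate 1 and 2). With control replicate 1 left out 5 were higher and 9 lower, and with control replicate 2 left out 5 were higher and 7 lower; the lone control is then assumed to vary like the other group, and fewer residual degrees of freedom remain. Scaling to a common median moved the median of the p53 targets to -0.114 and that of all tested genes to -0.0859.

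Changes of sign occurred only among the 7 genes that did not pass. These were Plk2 (-0.0865) and Tnfrsf10b (-0.10) with median scaling, Ccng1 (0.0631) and Fbxw7 (-0.0172) with the mean of kept probes, and 4 genes on leaving out a replicate. Over the 4 such fits Ccng1 ran from -0.190 to 0.104 (above 0 without control replicate 2 or 5-aza-dC replicate 2), Eda2r from -0.169 to 0.00887 (above 0 without control replicate 1), Plk2 from -0.116 to 0.126 and Tnfrsf10b from -0.0633 to 0.0898 (both below 0 without control replicate 1 or 5-aza-dC replicate 1). The causes were not tested.

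Same-numbered replicates deviated in opposite directions (correlation -0.63), and whether the replicate numbers mark any pairing of the samples was not tested. With the replicate number as a block, 8 p53 targets were higher and 11 lower (67.9% of members, 46.1% of all tested genes), Ddb2 (adjusted p = 0.0585) and Ei24 (adjusted p = 0.114) being lost, and Cdkn1a (adjusted p = 0.0510) and Huwe1 (adjusted p = 0.152) of the further lists. A crossed pairing, added after the data were seen, gave 9 higher and 12 lower (75% of members), with 64.9% of all tested genes called, against 52.0% without it. Of the 19 named genes of the further lists, 2, Cdkn1a and Huwe1, lost their call under some alternative and 0 changed direction; Cdkn1a also with median scaling (adjusted p = 0.0650), Huwe1 also with no detection filter (adjusted p = 0.0537) and without 5-aza-dC replicate 2 (adjusted p = 0.0735). Genes near background, such as Mdm4 and Eda2r, are limited by signal.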
